A study of Homo sapiens with 4 samples.

Results

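The 7 genes described here encode exportins: XPO1, CSE1L, XPOT, XPO4, XPO5, XPO6 and XPO7. They were chosen by gene identifier from the peak lists of 4 libraries, which name 17764 genes in all. The group was drawn up around XPO1 because that gene holds many peaks found in both eCLIP libraries within a short span, so its counts of shared peaks are given as a description and were not tested. The other 6 genes were added as relatives of XPO1 by their names. The files hold identifiers without symbols, and the symbols are those of the list that chose the genes.

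Exportins are large proteins of the karyopherin beta family. In the nucleus they bind cargo together with the GTP-bound form of Ran, pass through the nuclear pore and release the cargo in the cytoplasm once Ran hydrolyses its GTP. XPO1, also called CRM1, carries proteins with leucine-rich export signals and, through adaptors, several classes of RNA. CSE1L returns importin alpha to the cytoplasm, XPOT carries transfer RNA, XPO5 carries precursor microRNA, XPO4 carries the translation factor eIF5A, and XPO6 carries actin bound to profilin. XPO7 carries a broad set of proteins. The measurements below concern the transcripts of these genes, not the proteins.

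The libraries come from HEK-293 Flp-In TREx cells, a human embryonic kidney line, in which a FLAG-ZFR transgene was stably integrated at the FRT site. ZFR is a zinc finger protein that binds double-stranded RNA. In enhanced crosslinking and immunoprecipitation (eCLIP), RNA joined to the protein by ultraviolet light is recovered with it and sequenced. The 2 eCLIP libraries were compared with 2 size-matched inputs, for which RNA-protein complexes of matching size are taken without the immunoprecipitation step. Cells of both groups carried the transgene, were polyclonal, received doxycycline at 1 µg/mL over 48 to 72 h to induce it and were crosslinked at 400 mJ/cm2, so the inputs are no control for the transgene or the induction. Whether the replicates were grown as separate cultures is not stated in the labels, so p-values measure no more than the spread of these 4 libraries, and that spread may be technical.

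The deposited lists differ widely in length. They held 479308 and 41904 peaks in eCLIP replicates 1 and 2, against 63068 and 11204 in input replicates 1 and 2. The exportin genes held 738 and 152 of the eCLIP peaks, against 126 and 21 of the input peaks. Each peak carries the authors' p-value and a whole number, of at least 3, read here as the reads in the peak. Whole libraries were not counted here, so the sequencing depth is unknown, and levels are given as a share of the library: peaks of a gene per 10000 peaks, or reads per 10000 reads in peaks. The libraries are of bulk cells, in which fewer cells with a transcript and less of it per cell cannot be told apart. The abundance of the transcripts was not measured apart from the inputs.

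XPO1 (ENSG00000082898.12) is a minus-strand gene of chromosome 2 whose peaks run from position 61705273 to 61765392 of the hg19 build, a span of 60.1 kb. It held 152 and 84 peaks in the eCLIP libraries, against 28 and 12 in the inputs. These peaks held 2220 and 589 reads in eCLIP, against 97 and 45 in the inputs. XPO1 peaks were deep in eCLIP replicate 1, where the median peak held 13 reads and the smallest listed one 5, while the median over all peaks of that library was 4. In eCLIP replicate 2 the median XPO1 peak held 6 reads and that of the whole library 3. In both inputs the median XPO1 peak held 3 reads, the smallest number any list contains.

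As a share of the peaks, XPO1 took 3.17 and 20.05 per 10000 in the eCLIP libraries, against 4.44 and 10.7 per 10000 in the inputs. The groups overlapped, because the libraries numbered 2 were high and those numbered 1 low in both groups. As a share of the reads in peaks, XPO1 took 7.22 and 25.6 per 10000 in eCLIP, against 3.89 and 4.41 per 10000 in the inputs. By reads both eCLIP libraries lay above both inputs. The means were 16.4 ± 13.0 and 4.15 ± 0.37 reads per 10000 (SD, n = 2 each), and the spread between the eCLIP libraries was larger than the difference. Among peaks with a p-value of at most 0.001, the XPO1 share was 11.4 and 38.2 per 10000 in eCLIP, against 1.26 and 6.22 per 10000 in the inputs.

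**Figure D1:**
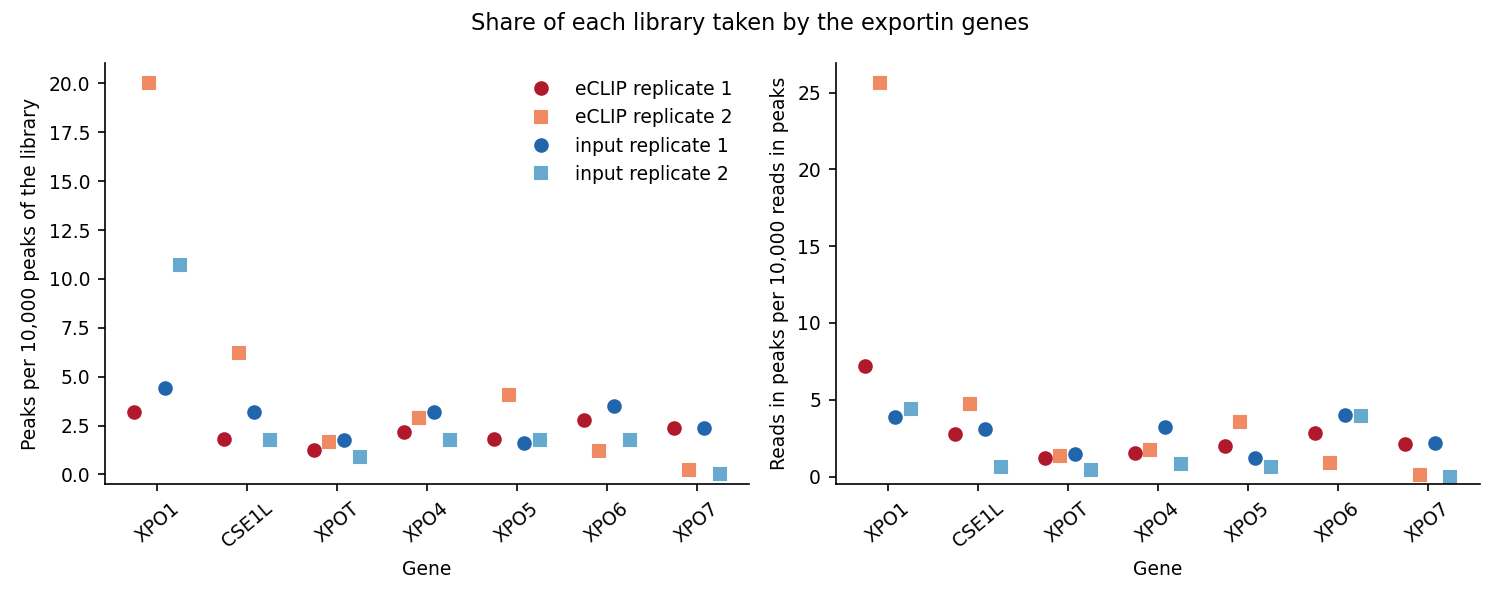
Share of each library taken by the 7 exportin genes, one point per library: peaks per 10000 peaks (left) and reads per 10000 reads in peaks (right), both on linear axes. XPO1 in eCLIP replicate 2 stands highest in both panels, at 20.05 peaks and 25.6 reads per 10000, and eCLIP lies above both inputs for XPO1 in the right panel only.

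The eCLIP and input shares were compared with limma over all 8914 genes that had at least 10 peaks, on log2(peaks per 10000 + 0.5), a scale that understates the change of genes with few peaks. All 7 exportin genes passed this filter and none was called. Over all genes, 0% were called higher and 0% lower at an adjusted p under 0.05, with 112 genes higher and 62 lower at an unadjusted p under 0.05. The log2 difference of XPO1 (eCLIP minus input) was 0.22 (SE 1.02, limma adjusted p = 0.995), close to the median of 0.16 over all genes. This value turned negative without eCLIP replicate 2, at -1.02, and without input replicate 1, at -0.37. On reads in peaks the difference was 1.61 (SE 0.83, limma adjusted p = 0.935), larger than that of 97.7% of the genes tested. The difference in peak share was larger than that of 53.6% of them. XPO1 was chosen from these lists for its many shared eCLIP peaks, so its rank on reads is a description and no test. On peaks with p up to 0.001 the XPO1 difference was 2.64 (SE 1.04, limma adjusted p = 0.284). Neither this value nor the one on reads passed the threshold. XPO1 reached the limit of 10 peaks with p up to 0.001 only through eCLIP. With 2 libraries a side, the smallest two-sided p that an exact permutation test could reach is 0.33.

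Input replicate 1 lists many XPO1 peaks that touch one another. In input replicate 1 the 28 XPO1 peaks formed 16 regions once touching and overlapping peaks were merged, while the 152 and 84 eCLIP peaks formed 147 and 82 regions and the 12 peaks of input replicate 2 stayed 12. After merging, XPO1 took 3.09 and 19.9 per 10000 regions in eCLIP, against 3.45 and 10.99 per 10000 in the inputs. The groups overlapped as before.

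Along XPO1 the eCLIP peaks were crowded in the 5′ and middle parts and thin in the 3′ part. The span was cut into 10 equal parts from the 5′ end. The first 6 parts held 134 of 152 peaks in eCLIP replicate 1, or 88.2% (Wilson 95% interval 82.1 to 92.4), and 79 of 84, or 94.0% (86.8 to 97.4), in eCLIP replicate 2. In the inputs they held 17 of 28, or 60.7% (42.4 to 76.4), and 11 of 12, or 91.7% (64.6 to 98.5). The share in input replicate 2 was within the range of the eCLIP libraries, on 12 peaks, and that in input replicate 1 was below it. Over all tested genes with a span of at least 5 kb, the first 6 parts held 66.9% and 67.7% of the eCLIP peaks, against 60.0% and 60.1% of the input peaks. The boundary after the sixth part was chosen after the values were seen, and these intervals cover counting error only. They take touching peaks as separate, and the 28 peaks of input replicate 1 formed 16 regions, so its interval may be too narrow.

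The fourth part was the fullest in both eCLIP libraries, with 31 of 152 peaks (20.4%) in replicate 1 and 20 of 84 (23.8%) in replicate 2. The last 4 parts together held 18 and 5 eCLIP peaks, against 11 and 1 input peaks. Part 10 alone held 5 of 152 peaks (3.29%, interval 1.41 to 7.47) in eCLIP replicate 1 and 0 of 84 (interval up to 4.37%) in eCLIP replicate 2, against 2 of 28 (7.14%, interval 1.98 to 22.6) and 0 of 12 (interval up to 24.2%) in the inputs. The intervals of the groups overlapped. In the eighth part input replicate 1 listed 9 of its 28 peaks, while the eCLIP libraries listed 8 and 1, and input replicate 2 listed none there. Touching peaks are counted separately here, and the 28 formed 16 regions, so the count of 9 is not like for like with eCLIP. In eCLIP replicate 1 successive XPO1 peaks lay a median of 176 bases apart, the closest spacing among the 7 genes in that library, where the other medians ran between 314 and 578 bases. In eCLIP replicate 2 the XPO1 median was 293 bases.

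**Figure D2:**
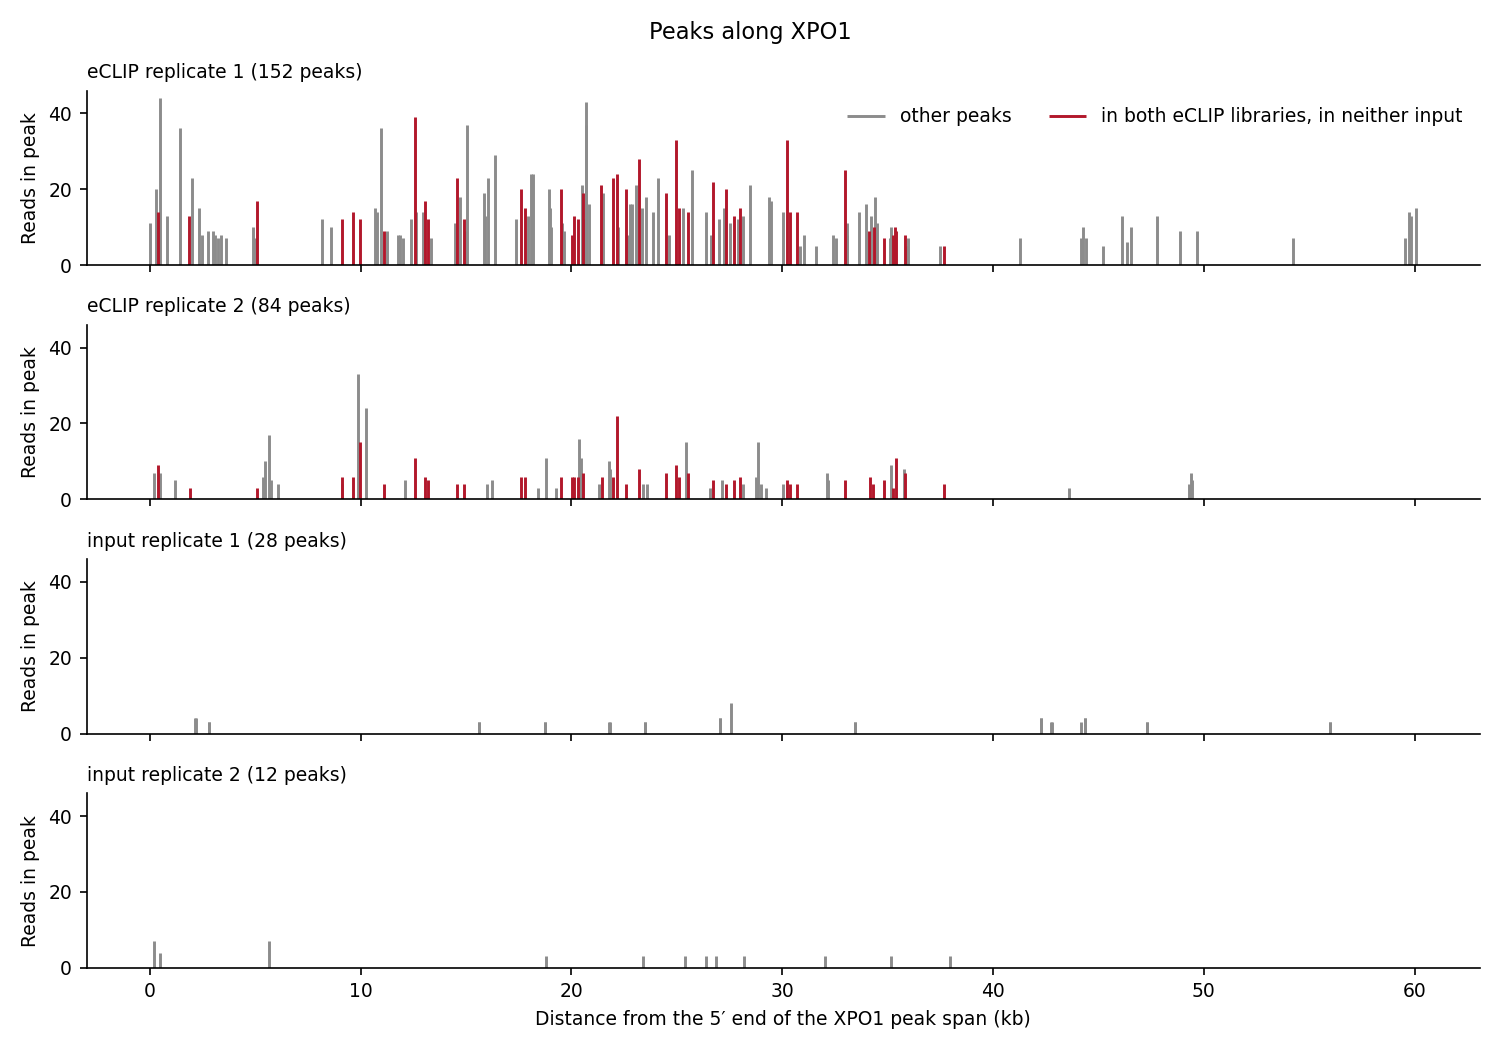
Peaks along XPO1 in the 4 libraries, placed by distance from the 5′ end of the peak span (kb), with the reads in the peak as height. Red marks peaks that the eCLIP libraries share and that overlap no input peak, nearly all in the first 6 of 10 parts; grey marks all other peaks, and no input peak exceeds 8 reads.

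Of the 84 XPO1 peaks of eCLIP replicate 2, 47 overlapped a peak of eCLIP replicate 1 by at least 1 base on the same strand, or 56.0%. XPO1 was chosen for such peaks, so this share is a description, and the values over all genes are given only as background. Over the 1099 genes with at least 10 eCLIP replicate 2 peaks, the median share was 33.3%, and the middle of the distribution ran from 22.4% to 43.8%. XPO1 peaks of eCLIP replicate 1 covered 7.45% of the span, against 2.48% to 4.86% in the other 6 genes, and the part of this coverage in the overlap was not tested. Of the 152 peaks of eCLIP replicate 1, 48 (31.6%) overlapped eCLIP replicate 2, against 2.96% over that whole list. These 48 peaks held a median of 14 reads and the other 104 a median of 12. In eCLIP replicate 2 the medians were 6 reads for the 47 shared peaks and 5 reads for the other 37.

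The 37 XPO1 peaks of eCLIP replicate 2 without a partner lay a median of 153 bases from the nearest peak of eCLIP replicate 1, and 16 of them lay within 100 bases. The peaks of eCLIP replicate 1 were themselves a median of 176 bases apart in XPO1, so nothing is read from this distance. The strongest of them, at chr2:61755489-61755547 with 33 reads and a deposited p-value of 4.68e-29, was the deepest XPO1 peak of its library. It lay 33 bases from the nearest peak of eCLIP replicate 1. The next, at chr2:61755121-61755164 with 24 reads, lay 253 bases from one. In the other direction, the peak of eCLIP replicate 1 at chr2:61744689-61744712, with 43 reads and a deposited p-value of 4.81e-36, overlapped no peak of the other libraries.

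Of the 48 XPO1 peaks shared by the eCLIP libraries, 44 overlapped no input peak. Over all genes, 85.2% of the shared peaks overlapped none. XPO1 had rank 5 among all genes by this count, level with 2 others, and this is the property for which it was chosen. Per 10 kb of span it held 7.32 such peaks, against a median of 2.34 over the 238 genes with at least 10 of them, and 15 of those genes held more. The count of 44 depended on the limits: it was 20 among peaks with p up to 0.001 and 6 in lists cut to an equal length, where 7 of 40 peaks of eCLIP replicate 2 (17.5%) were shared. The 44 peaks were spread over the first 7 parts of the gene. Parts 1 and 2 held 3 and 4 of them, parts 3 to 6 held 7, 10, 8 and 11, and the seventh part held 1. None lay in the last 3 parts.

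The 5 of these sites with most reads in eCLIP replicate 2 lie at 4 places. The first, at chr2:61743229-61743265 on the minus strand, 22.1 kb from the 5′ end, held 24 and 22 reads in eCLIP replicates 1 and 2. The deposited p-values there were 8.5e-13 and 2.51e-18, and the peak edges of the 2 libraries differed by at most 3 bases. The second, at chr2:61755418-61755455, held 12 and 15 reads and lies beside the unshared peak of 33 reads described above. The third, at chr2:61752783-61752832, held 39 and 11 reads, with a deposited p-value of 3.47e-23 in eCLIP replicate 1. The remaining ones, at chr2:61730020-61730040 and chr2:61729979-61730001, held 10 and 9 reads in eCLIP replicate 1 and share 1 peak of eCLIP replicate 2, of 11 reads, so they are not separate sites in that library.

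Of the 152 XPO1 peaks of eCLIP replicate 1, 1 overlapped input replicate 1 and 5 overlapped input replicate 2. Together these 6 are 3.95%, against 1.95% over all peaks of that list. Of the 84 peaks of eCLIP replicate 2, 2 overlapped input replicate 1 and 8 overlapped input replicate 2. Seen from the inputs, 4 of 28 and 9 of 12 XPO1 peaks overlapped an eCLIP peak, and none of the 28 overlapped any of the 12. The deepest XPO1 peak of eCLIP replicate 1, at chr2:61764885-61764955 with 44 reads near the 5′ end, was among those with an input peak. It was found in eCLIP replicate 2 and in input replicate 2, where the overlapping input peak held 4 reads.

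**Figure D3:**
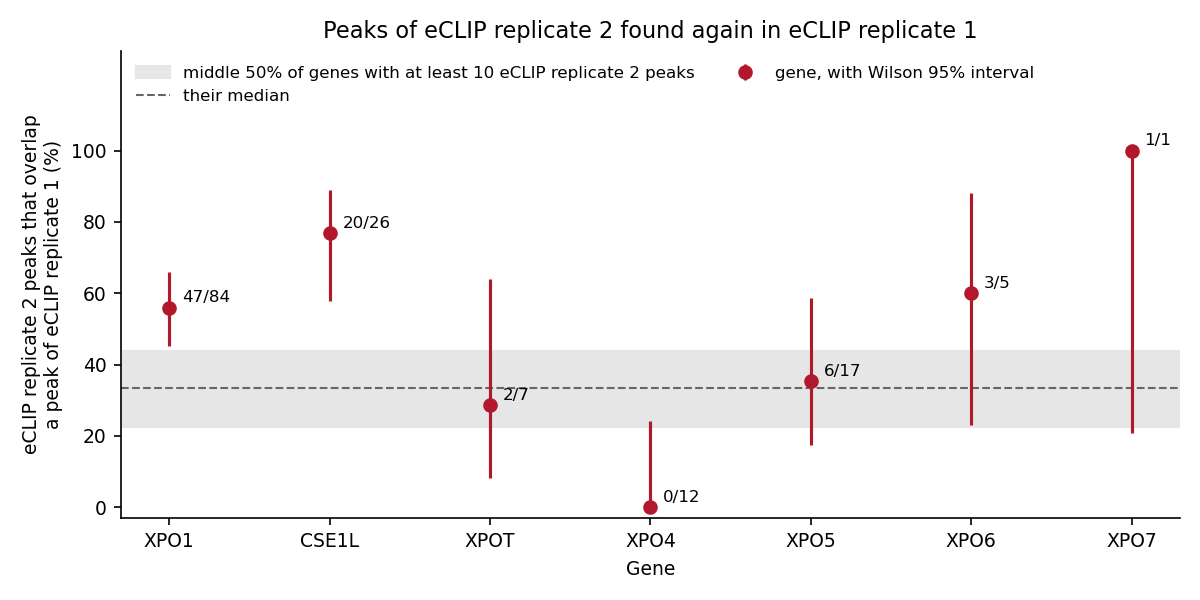
Percent of each exportin gene's eCLIP replicate 2 peaks that overlap a peak of eCLIP replicate 1, with Wilson 95% intervals and the counts beside each point. The band spans the middle 50% of the 1099 genes with at least 10 such peaks and the dashed line is their median, 33.3%. XPO1 (47 of 84) was chosen for shared peaks, so its place against the band is no test; CSE1L has 20 of 26 and XPO4 has 0 of 12.

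CSE1L, the export receptor of importin alpha (ENSG00000124207.12, plus strand of chromosome 20, peaks from 47663285 to 47712514), was the relative with most shared peaks. It held 86 and 26 peaks in eCLIP, against 20 and 2 in the inputs, which is a share of 1.79 and 6.20 per 10000 peaks in eCLIP, and of 3.17 and 1.79 in the inputs. By reads in peaks the shares were 2.76 and 4.75 per 10000 in eCLIP, against 3.09 and 0.588 per 10000 in the inputs. In both measures the groups overlapped, with eCLIP replicate 2 highest. The log2 difference in peak share was 0.44 (SE 0.83, limma adjusted p = 0.995).

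Of the 26 CSE1L peaks of eCLIP replicate 2, 20 (76.9%, Wilson interval 57.9 to 89.0) overlapped eCLIP replicate 1. Counted on eCLIP replicate 1, 20 of 86 were shared and 19 of these met no input peak, or 3.86 per 10 kb of span. That was 10 in place of 19 when only peaks with over 3 reads were kept, and 50% of the CSE1L peaks of eCLIP replicate 2 held 3 reads. It was 5 among peaks with p up to 0.001 and 3 in lists of equal length, where 2 of 6 CSE1L peaks of eCLIP replicate 2 (33.3%) were shared. The site with most reads in eCLIP replicate 2 lies at chr20:47688197-47688261 with 21 and 9 reads. The deepest peak of eCLIP replicate 1, at chr20:47684301-47684319 with 40 reads, was also found in eCLIP replicate 2 and in neither input. In CSE1L the first 6 parts held 55 of 86 (64.0%, interval 53.4 to 73.3) in eCLIP replicate 1 and 19 of 26 (73.1%, interval 53.9 to 86.3) in eCLIP replicate 2.

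XPO5, the carrier of precursor microRNA (ENSG00000124571.13, minus strand of chromosome 6, peaks between 43490819 and 43543049), had 87 and 17 peaks in eCLIP, against 10 and 2 in the inputs. Its shares were 1.82 and 4.06 per 10000 peaks in eCLIP, against 1.59 and 1.79 per 10000 in the inputs. By reads they were 1.97 and 3.57 per 10000 in eCLIP, against 1.20 and 0.588 per 10000 in the inputs. Both eCLIP libraries lay above both inputs in each measure, narrowly by peaks. Once touching peaks were merged, XPO5 took 1.827 and 4.129 per 10000 regions in eCLIP, against 1.078 and 1.832 per 10000 in the inputs. By merged regions the groups thus overlapped. The 12 input peaks all held 3 reads and none reached a p-value of 0.001, whereas 34 and 4 eCLIP peaks did. The log2 difference in peak share was 0.57 (SE 0.78, limma adjusted p = 0.995), and on peaks with p up to 0.001 it was 3.05 (SE 0.54, limma adjusted p = 0.131). Neither passed the threshold. The latter fit took genes with at least 10 such peaks, all of which XPO5 held in eCLIP.

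In XPO5, 6 of 17 peaks of eCLIP replicate 2 (35.3%, Wilson interval 17.3 to 58.7) overlapped eCLIP replicate 1, near the median over genes. The 6 shared peaks met no input peak, and 4 of them lay in the seventh part of the gene, which also held most peaks of both eCLIP libraries: 15 of 87 and 8 of 17. The deepest peak of eCLIP replicate 1, at chr6:43508838-43508890 with 20 reads, was found in eCLIP replicate 2. The deepest of eCLIP replicate 2, at chr6:43513157-43513271 with 17 reads, met no peak of eCLIP replicate 1 and 1 input peak of 3 reads.

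XPOT, the transfer RNA carrier (ENSG00000184575.7, plus strand of chromosome 12, peaks between 64798315 and 64844709), had 60 and 7 peaks in eCLIP, against 11 and 1 in the inputs. Its shares were 1.25 and 1.67 per 10000 peaks in eCLIP, against 1.74 and 0.893 per 10000 in the inputs, and the groups overlapped. Of the 7 peaks of eCLIP replicate 2, 5 lay in part 1 of the span and all lay in the first 6 parts, while eCLIP replicate 1 had 12 of 60 in part 1 and 11 in part 10. The 2 peaks shared by the eCLIP libraries both lay in part 1. The one at chr12:64802806-64802839 held 7 and 3 reads.

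XPO4, the carrier of eIF5A (ENSG00000132953.12, minus strand of chromosome 13, peaks from 21353589 to 21476791), had the longest span of the 7 genes, 123.2 kb, and shared nothing between the eCLIP libraries. It held 105 and 12 peaks in eCLIP, against 20 and 2 in the inputs, which is a share of 2.19 and 2.86 per 10000 peaks in eCLIP, and of 3.17 and 1.79 in the inputs, with the groups overlapping. None of its 12 eCLIP replicate 2 peaks met eCLIP replicate 1 (Wilson interval up to 24.2%), and 1 lay within 10 bases of such a peak. Its eCLIP peaks were shallow, with medians of 4 and 3 reads. In eCLIP replicate 1 they gathered at both ends, with 20 and 24 of 105 in the first 2 parts and 18 in the last. In eCLIP replicate 2, 7 of 12 lay in the first 2 parts and none in the last. Input replicate 1 listed 3 of its 20 in part 1, none in part 2 and 8 in part 10. These 20 peaks formed 12 regions once touching peaks were merged, so the count of 8 is not like for like with eCLIP. Peaks at the 3′ end of XPO4 were still listed in input, so their presence there was not particular to eCLIP.

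XPO6, the carrier of actin bound to profilin (ENSG00000169180.7, minus strand of chromosome 16, peaks between 28110895 and 28222926), had 134 and 5 peaks in eCLIP, against 22 and 2 in the inputs. By reads in peaks it took 2.80 and 0.871 per 10000 in eCLIP, against 4.01 and 3.92 per 10000 in the inputs, so both eCLIP libraries lay below both inputs. Much of the input level came from 1 place near the 3′ end, 109.5 kb from the 5′ end of the span. There input replicate 1 listed 25 reads at chr16:28113394-28113419 and input replicate 2 listed 37 reads at chr16:28113394-28113420, and neither eCLIP library had an overlapping peak. That place held 25% and 92.5% of the XPO6 reads of the inputs. Without the deepest peak of each library, the XPO6 shares were 2.65 and 0.610 reads per 10000 in eCLIP, against 3.01 and 0.294 in the inputs, and the groups overlapped. By peaks, the log2 difference was -0.35 (SE 0.79, limma adjusted p = 0.995).

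In eCLIP the deepest XPO6 peaks lay near the middle of the span. In eCLIP replicate 1 the deepest, at chr16:28165731-28165801 with 47 reads, was met by input replicate 1 and not by eCLIP replicate 2. Close by, the shared site at chr16:28165544-28165578 held 35 and 6 reads, with a deposited p-value of 1.27e-32 in eCLIP replicate 1, and overlapped no input peak. It was 1 of 3 shared XPO6 peaks, all free of input peaks.

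XPO7 (ENSG00000130227.12, plus strand of chromosome 8, a span of 86.5 kb) held 114 peaks in eCLIP replicate 1 and 1 in eCLIP replicate 2, against 15 and 0 in the inputs. Its shares were 2.38 and 0.239 per 10000 peaks in eCLIP, against 2.38 and 0 per 10000 in the inputs. The libraries numbered 1 had the same share and those numbered 2 had next to none. The 1 peak of eCLIP replicate 2, of 3 reads, overlapped a peak of eCLIP replicate 1 of 5 reads at the 3′ end. In eCLIP replicate 1, 92 of 114 peaks (80.7%, interval 72.5 to 86.9) lay in the first 6 parts, with 23 in the first. In input replicate 1, 13 of 15 (86.7%, interval 62.1 to 96.3) lay there, so this position was not particular to eCLIP.

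**Figure D4:**
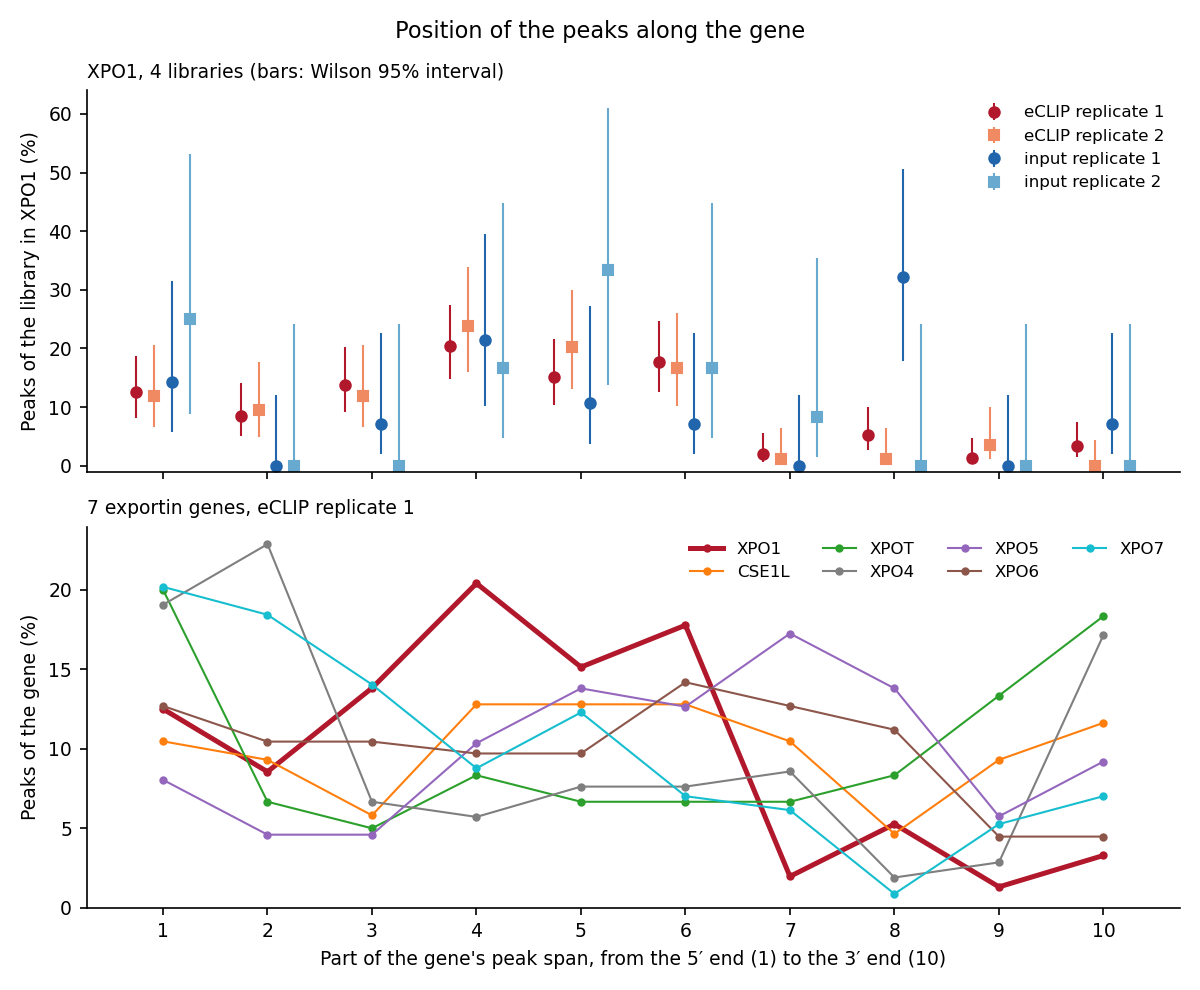
Position of the peaks in 10 equal parts of each gene's peak span, from the 5′ end (1) to the 3′ end (10). The upper panel gives the percent of XPO1 peaks per part in the 4 libraries with Wilson 95% intervals, and the lower panel the 7 genes in eCLIP replicate 1; XPO1 is fullest in part 4, at 20.4%, and holds 1.97% in part 7, while XPO4 has its highest values in parts 1 and 2.

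Per length, XPO1 had the most listed peaks of the 7 genes in every library. It was chosen for many shared eCLIP peaks in a short span, so its lead in eCLIP is a description and no test. Within eCLIP replicate 1 the density ran from 2.53 peaks per kb of span in XPO1 through 1.75 in CSE1L, 1.67 in XPO5, 1.32 in XPO7, 1.29 in XPOT and 1.20 in XPO6 to 0.852 in XPO4. In eCLIP replicate 2 the order was XPO1 (1.397 per kb), CSE1L (0.528), XPO5 (0.325), XPOT (0.151), XPO4 (0.0974), XPO6 (0.0446) and XPO7 (0.0116). In input replicate 1 the densities were 0.466 per kb in XPO1 and 0.406 in CSE1L, with the other 5 genes between 0.162 and 0.237. In input replicate 2 they were 0.200 per kb in XPO1 and at most 0.0406 in the others. XPO1, CSE1L and XPO5 thus led in both eCLIP libraries, and XPO1 led in both inputs by listed peaks. CSE1L came next in the inputs, but in input replicate 2 on 2 peaks, as many as XPO5 had (0.0383 per kb). Touching peaks are counted separately here. Once merged, the XPO1 peaks of input replicate 1 formed 16 regions in 60.1 kb and those of CSE1L 17 in 49.2 kb. By merged regions CSE1L thus lay above XPO1 in input replicate 1. Neighbours such as CSE1L and XPO5, or XPO7 and XPOT, were close in eCLIP replicate 1, and the lower 4 genes changed order between the eCLIP libraries.

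Over the whole group, the number of genes whose libraries did not overlap was set against the share of all genes. By number of peaks, eCLIP lay above both inputs in 1 of 7 genes (XPO5), against 21.1% of all genes tested, and below in none, against 10.2%. Once touching peaks were merged, the groups overlapped in XPO5 as well. By reads in peaks, eCLIP lay above in 2 of 7 (XPO1 and XPO5), against 25% of all genes tested, and below in 1 (XPO6), against 9.08%. Comparisons limited to p up to 0.001, to over 3 reads or to equal lists took genes with at least 10 of the peaks kept. For peaks with p up to 0.001, eCLIP lay above in 4 of 7 (XPO1, CSE1L, XPOT and XPO5), against 31.8% of 3334 genes. It lay below in 2 (XPO4 and XPO6), against 9%. All 7 genes reached the limit of 10 such peaks only through eCLIP, so nothing is read from these counts. In XPO4 and XPO6, eCLIP replicate 2 and input replicate 2 held 1 such peak each. Their order there follows from the list totals of 9166 and 3216 such peaks. With peaks of over 3 reads, eCLIP lay above in 1 of 7 (XPO5), against 25.6% of 6878 genes, and below in none, against 7.82%. XPO5 had no input peak of over 3 reads and reached the limit of 10 only through eCLIP, so nothing is read from its place. In lists cut to an equal length of 11204 peaks, 3 exportin genes could be tested; eCLIP lay above in XPO1 and CSE1L, against 32.8% of 959 genes, and below in none, against 7.51%. By peaks and by reads the counts above were near the background, and with 7 genes chosen around XPO1 no more is read from the others. The median log2 difference in peak share was 0.22 over the 7 genes and 0.16 over all genes tested. On reads in peaks these medians were 0.40 and 0.16. On peaks with p up to 0.001 they were 1.43 and 0.83. The 7 genes passed that filter only through eCLIP, so nothing is read from this last pair.

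**Figure D5:**
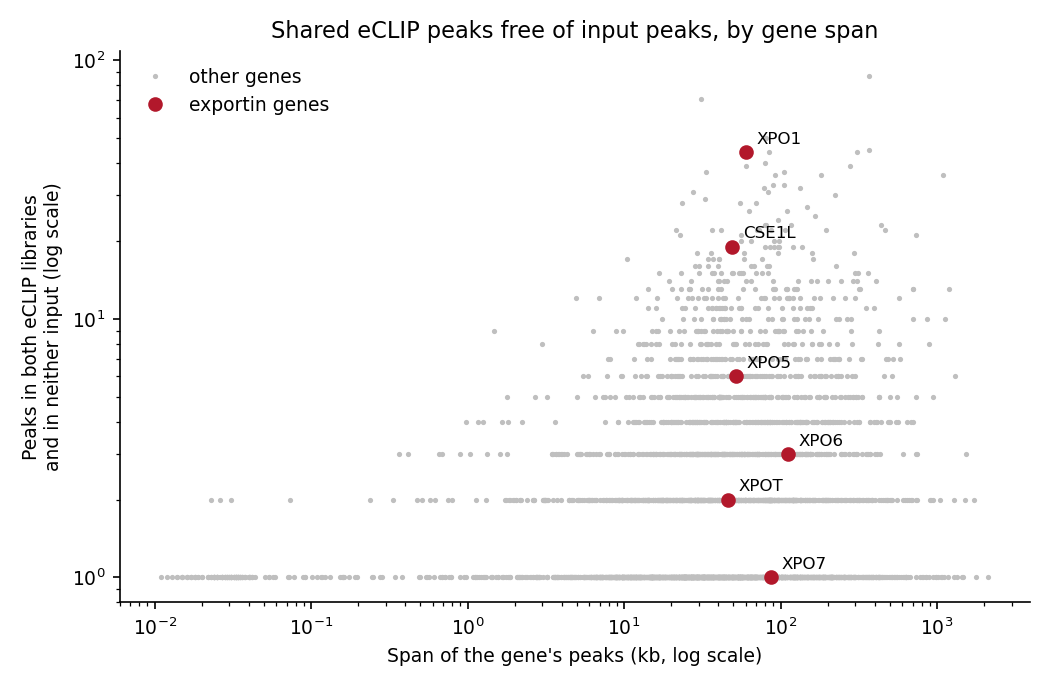
Number of peaks shared by the eCLIP libraries and free of input peaks, for each gene with at least 1, against the span of the gene's peaks (both axes logarithmic). XPO1 (44 peaks in 60.1 kb) was chosen for such peaks in a short span, so its height is no test. CSE1L holds 19 peaks and has rank 61 per 10 kb of span among the 238 genes with at least 10. The other exportin genes hold between 1 and 6, and XPO4, with 0, is not drawn.

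The genes with the pattern most like XPO1 were sought among 1541 genes with at least 100 peaks, by the Euclidean distance over the 4 log2 peak shares. The nearest was ENSG00000130723.13 on the plus strand of chromosome 9 (distance 0.59), with 4.86 and 19.1 peaks per 10000 in eCLIP, against 4.44 and 12.5 per 10000 in the inputs. Next was ENSG00000078369.12 on the minus strand of chromosome 1 (distance 0.59), with 4.57 and 19.6 per 10000 in eCLIP, against 3.33 and 10.7 per 10000 in the inputs. They held 37 and 33 shared peaks free of input peaks. Of the exportin genes with at least 100 peaks, CSE1L was the nearest to XPO1, at a distance of 2.92 and rank 288.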

How the data were processed

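The authors deposited 1 peak list per library, on hg19; per the submitters' processing notes cutadapt, STAR and SAMtools were used. Versions, peak caller and annotation: not given in the sources used here. Column 9 is the authors' p-value of each peak (0 to 0.05). The deposited score is the whole part of 10 times its negative log10, capped at 1000 (peaks with a p-value listed as 0 aside), and was not analysed. The number ending each peak name was read as reads, which no file states. Peak positions are 1-based.

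Members and gene lists were chosen with earlier results of these data known. Genes were compared with limma 3.58.1 (R 4.3.3) on log2(peaks per 10000 + 0.5), eBayes with a trend, two-sided, Benjamini-Hochberg over all 8914 genes with at least 10 peaks, threshold 0.05. The fit was also run on simulated peak numbers. These had no spread between replicates beyond counting error, so that run does not give the error rates at the spread seen here. Overlap needed 1 shared base on the same strand. All 7 exportin genes are named, with the 5 strongest shared XPO1 sites, 1 for each other gene where one existed, and the 2 genes nearest XPO1; each library's deepest peaks and the nearest unshared ones were chosen after their values were seen. A list of 40 nuclear transport symbols was not counted: 0 were paired with an identifier, and 0 of 59792 reference genes carry one. Exons, introns and sequences are not analysed here. Alternatives changed the pseudocount, filters, p-value limit, reads, merging, list length, overlap, replicate term and libraries; reads in merged peaks were added after seeing the data.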

Additional observations from a re-analysis of the deposited data

How the results depend on the processing

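No exportin gene was called under any of the alternatives run. Over all genes, limma called 0; with replicate number as a block it called 4 (3 higher, 1 lower), and with 1 library left out between 0 and 695, the highest without eCLIP replicate 2. In those fits the spread of the single remaining library is borrowed from the other group. The labels do not say that the number pairs libraries; under the block the XPO1 difference stayed 0.22 (limma adjusted p = 0.909). Deviations of same-numbered libraries from their group means correlated at r = 0.397 across 8914 genes, which are not independent. In both groups the list numbered 1 was the longer. The part of list length in this correlation was not tested, so no pairing is read from it. With 1 library left out, the log2 differences ran from -1.02 to 1.47 for XPO1, -0.34 to 1.21 for CSE1L, -0.20 to 0.49 for XPOT, -0.29 to 0.40 for XPO4, -0.83 to 0.13 for XPO6 and -0.98 to 1.54 for XPO7. For XPO5 they stayed above 0. The reversals per library were -1.02 (XPO1), -0.34 (CSE1L), -0.01 (XPOT), -0.11 (XPO4) and 0.13 (XPO6) without eCLIP replicate 2, -0.37 (XPO1) and 0.05 (XPO6) without input replicate 1, -0.20 (XPOT), -0.29 (XPO4) and -0.98 (XPO7) without input replicate 2, and -0.70 (XPO7) without eCLIP replicate 1. Signs also turned with p up to 0.001 for XPO4 (-1.16) and XPO7 (-0.17), with over 3 reads (-0.84) or reads in peaks (-0.032) for XPO4, and in lists of equal length for XPO6 (0.53). In lists of equal length, 17.5% of XPO1 peaks of eCLIP replicate 2 were shared and 6 shared peaks were free of input; with p up to 0.001 the count free of input was 20. The other alternatives gave 41 to 48 such peaks. Part 10 of XPO1 held 0.68% of eCLIP replicate 1 peaks over the span of the inputs, and 0% of input replicate 1 peaks with over 3 reads or p up to 0.001, where 9 and 1 remained. The cause of these shifts was not tested, beyond the fewer peaks that the limits leave.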
